A study of Arabidopsis thaliana with 5 samples.

Results

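The genes described here are 9 Arabidopsis thaliana loci that copy or maintain DNA methylation and chromatin marks: MET1, VIM1, VIM3, CMT3, DRM2, DDM1, KYP, ATXR5 and ATXR6. They were chosen by locus identifier from the 33602 loci in the deposited tables, with earlier results of these data known. All 9 passed the filter on low counts. RNA came from nuclei of root tips of 0.5 cm, cut from seedlings grown for 5 days and treated to release protoplasts. The nuclei were sorted for GFP, 120000 per library, and every plant in either group carried a construct with the SMR1 promoter in front of a GUS-GFP fusion. The control group was Col-0 with this construct, with 2 libraries (replicates 2 and 4), and the other group was the smr1 mutant with the same construct, with 3 libraries (replicates 1, 2 and 4). The design text calls the libraries biological replicates, and the allele of smr1 is not named in the sources used here. The sort selects nuclei by the GFP of this construct, so the libraries do not stand for the whole root tip.

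Cytosine methylation of plant DNA occurs in CG, CHG and CHH contexts, where H is any base but G. After a replication fork has passed, CG methylation is restored on the new strand by MET1, a maintenance methyltransferase that needs VIM proteins, which bind hemimethylated DNA. CHG methylation is kept by CMT3, which binds histone H3 methylated at lysine 9, and KYP deposits that histone mark, so each feeds the other. DRM2 is the methyltransferase of RNA-directed DNA methylation, and DDM1 is a nucleosome remodeller that gives the methyltransferases access to heterochromatin. ATXR5 and ATXR6 monomethylate lysine 27 of the replication-coupled histone H3.1 and bind PCNA, the sliding clamp of the fork. SMR1, also called LGO, is an inhibitor of cyclin-dependent kinases that promotes endoreplication, in which nuclear DNA is copied without division.

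Library totals lay between 24918795 and 26823753 reads, and a floor of 3 reads equals 0.112 to 0.120 CPM on these totals. Levels of genes are given in CPM, the reads of a gene scaled to a common library size with TMM factors. Reads are not independent molecules, so this floor and every counting error given here cover counting error only. SMR1 itself (AT3G10525) lay at 11 and 21.6 CPM in Col-0 and at 6.02, 4.70 and 7.06 CPM in smr1 (log2 fold change -1.46, SE 0.31, edgeR adjusted p = 0.725), and the position of the mutation in the transcript is not known here. All fixed markers of root meristem, root hair, non-hair epidermis, endodermis, xylem, phloem and root cap passed the filter on low counts. Of 4 green tissue markers 3 passed, with a summed level of 5.10 to 13.3 CPM in Col-0 and 1.58 to 27.3 CPM in smr1. Since these are bulk samples of sorted nuclei, more nuclei of one kind and more RNA per nucleus cannot be told apart.

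In 7 of the 9 genes smr1 lay wholly above Col-0, meaning that the lowest smr1 library exceeded the highest Col-0 library, where 13.7% of the 20151 loci tested had that pattern. The 7 were MET1, VIM1, VIM3, ATXR6, CMT3, KYP and DDM1, with fold differences from 1.52 to 2.01. ATXR5 and DRM2 had overlapping groups. No gene of the 9 passed the threshold of 0.05 on the adjusted p over all loci by edgeR, which called 1 locus of the 20151 (0.00496%). At an unadjusted p under 0.05, 6 of the 9 were higher in smr1, where 3.96% of all loci were and 6.85% passed in either direction. The log2 fold change was positive in 9 of the 9, against 51.2% of all loci. The median log2 fold change was 0.88 over the 9 genes and 0.01 over all loci tested. Since the 9 genes were chosen with earlier results of these data known, the shares over all loci are a description and not a test.

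**Figure D1:**
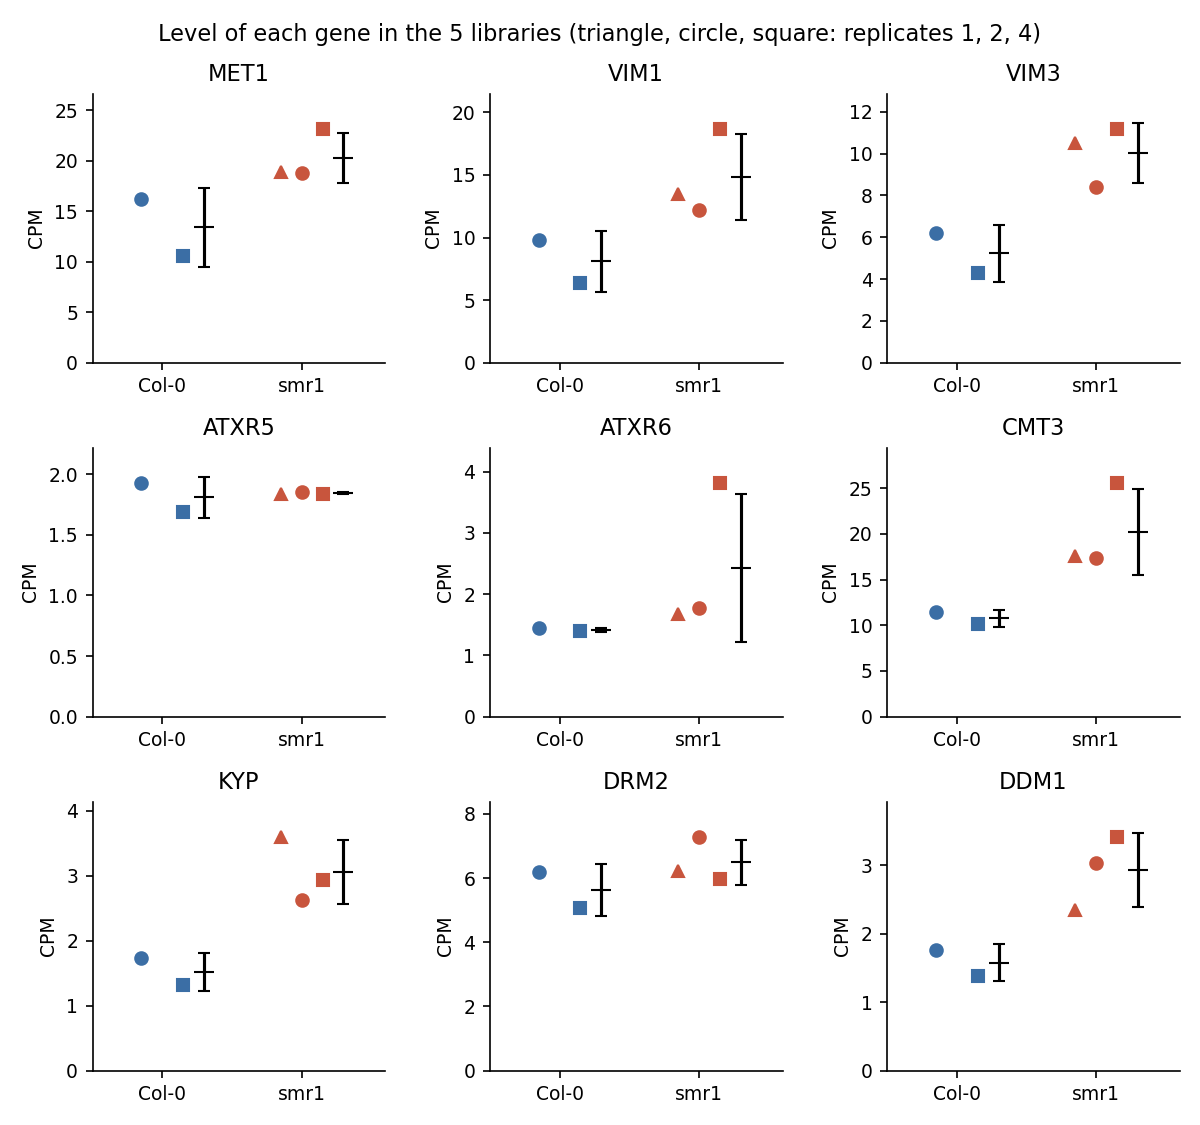
Level of each of the 9 genes in CPM (vertical axes, from 0) in the Col-0 and smr1 libraries, with 1 point per library and the mean ± SD beside the points. In 7 panels all smr1 points lie above both Col-0 points, while in the ATXR5 and DRM2 panels the groups overlap.

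MET1 (AT5G49160), the CG maintenance methyltransferase, occupies bases 19932114 to 19938470 of chromosome 5 (TAIR10.1, plus strand, 12 exons). Col-0 replicates 2 and 4 held 16.2 and 10.6 CPM of it, against 18.9, 18.8 and 23.2 CPM in smr1 replicates 1, 2 and 4, with 282 to 632 reads. The Col-0 libraries stood further from each other than the upper Col-0 library stood from the lowest smr1 library. The mean was 13.4 ± 4.0 CPM in Col-0 (SD, n = 2) and 20.3 ± 2.53 CPM in smr1 (SD, n = 3), with a log2 fold change of 0.60 (SE 0.21, edgeR adjusted p = 0.725). Leaving out Col-0 replicate 4, the lowest library, gave 0.32, and leaving out Col-0 replicate 2 gave 0.93.

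The VIM proteins recognise the methylated parental strand beside MET1, and VIM1 and VIM3 were both higher in every smr1 library. VIM1 (AT1G57820, chromosome 1, 21413981 to 21418115, minus strand, 9 exons) was at 9.82 and 6.37 CPM in Col-0 and at 13.5, 12.2 and 18.7 CPM in smr1. Its log2 fold change was 0.88 (SE 0.27, edgeR adjusted p = 0.725), and all its reads stood on the model of 1938 nt, while the model of 1929 nt was listed at 0 in each library. VIM3 (AT5G39550, chromosome 5, 15837178 to 15840678, minus strand, 9 exons) was at 6.20 and 4.27 CPM in Col-0 and at 10.5, 8.40 and 11.2 CPM in smr1. Its log2 fold change was 0.94 (SE 0.23, edgeR adjusted p = 0.725). As for MET1, Col-0 replicate 4 held the lowest level and smr1 replicate 4 the highest of both genes. Leaving out Col-0 replicate 4 gave 0.59 for VIM1 and 0.69 for VIM3, and leaving out Col-0 replicate 2 gave 1.21 and 1.22.

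The VIM3 value depends on how reads were divided between near-identical genes. Of the stretches of 31 nt in its coding sequence, 34.2% occurred in another gene, chiefly VIM2 and VIM4, against 2.25% for VIM1 and 0.743% for MET1. CMT3, KYP, DRM2, DDM1, ATXR5 and ATXR6 shared none. The longest stretch that VIM3 shares with VIM2 and with VIM4 covers coding bases 875 to 990, and it is shown here because a read from it cannot be placed. The sequences are spliced coding sequence from RefSeq's TAIR10.1, 5′ to 3′, from the VIM3 interval chr5:15838829-15839063 (minus strand) and the VIM2 interval chr1:24590935-24591169 (plus strand), each of which also holds an intron that is not printed. Capitals mark the 116 nt shared without a mismatch, and small letters are the bases on either side.
VIM3: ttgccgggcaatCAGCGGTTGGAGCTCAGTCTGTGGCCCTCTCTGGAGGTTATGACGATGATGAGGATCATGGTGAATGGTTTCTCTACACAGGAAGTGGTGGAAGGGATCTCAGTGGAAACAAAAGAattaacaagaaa
VIM2: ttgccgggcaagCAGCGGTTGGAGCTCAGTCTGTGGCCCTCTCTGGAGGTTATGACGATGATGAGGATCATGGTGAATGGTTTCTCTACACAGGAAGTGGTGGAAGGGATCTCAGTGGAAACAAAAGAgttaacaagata

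VIM2 (AT1G66050) did not follow VIM3. Its expected count was 266.2 and 44.1 reads in Col-0 replicates 2 and 4, and 43.3, 193.9 and 79.2 reads in smr1 replicates 1, 2 and 4, so it was high in replicate 2 of both genotypes (log2 fold change -0.67, SE 0.83, edgeR adjusted p = 0.888). VIM4 had at most 15.8 reads. With VIM2, VIM3 and VIM4 summed to 1 unit, an alternative chosen after the data were seen, the sums were 423.0 and 169.0 reads in Col-0 and 328.0, 424.0 and 384.0 reads in smr1. The groups then overlapped, with a log2 fold change of 0.26 (edgeR adjusted p = 0.908).

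**Figure D2:**
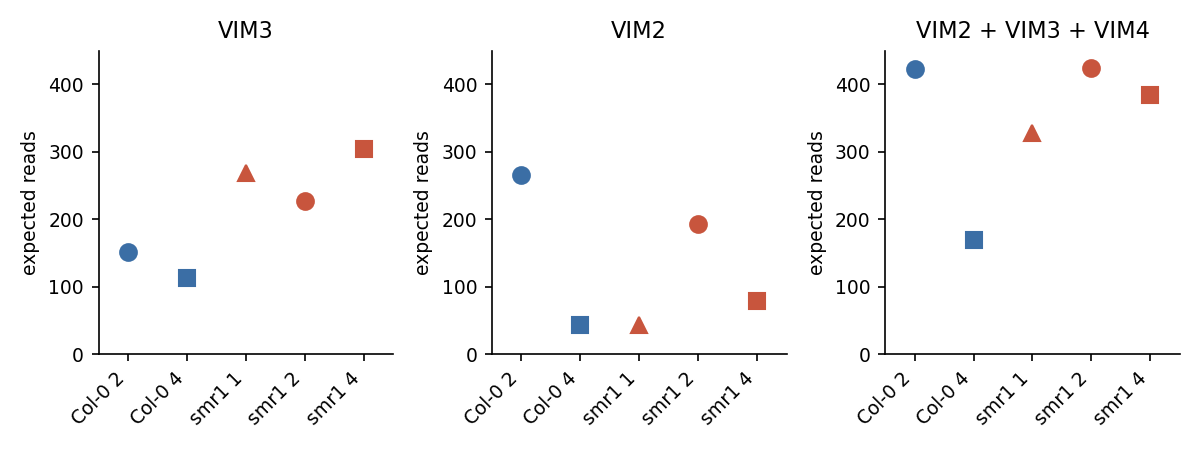
Expected reads per library (vertical axes, from 0) of VIM3, of VIM2 and of VIM2, VIM3 and VIM4 together, with 1 point per library. VIM3 is highest in the smr1 libraries, VIM2 is highest in replicate 2 of Col-0 and of smr1 (266.2 and 193.9 reads), and the sum overlaps between the groups.

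Of the H3K27 monomethyltransferases, ATXR5 had overlapping groups and ATXR6 did not, and a difference between these genes was not tested. ATXR5 (AT5G09790, chromosome 5, 3038978 to 3041206, minus strand, 6 exons) was at 1.93 and 1.69 CPM in Col-0 and at 1.84, 1.85 and 1.84 CPM in smr1. All 3 smr1 libraries lay between the Col-0 libraries, and the log2 fold change was 0.03 (SE 0.22, edgeR adjusted p = 0.988). It rested on 45 to 50 reads a library, each with a counting error of 14.1% to 14.9%. Its model of 1059 nt held 23.2 of these reads in one Col-0 library (replicate 2), 13.4 in one smr1 library (replicate 4) and under 1 read in the other libraries, with the rest on the model of 1140 nt. ATXR6 (AT5G24330, chromosome 5, 8295110 to 8297159, minus strand, 6 exons) was at 1.44 and 1.39 CPM in Col-0 and at 1.68, 1.78 and 3.82 CPM in smr1. Its highest library was smr1 replicate 4. The log2 fold change was 0.78 (SE 0.42, edgeR adjusted p = 0.742) with all libraries and 0.29 without that library. The other smr1 libraries had 43 and 48 reads and the Col-0 libraries 35 and 37 reads, with a counting error of 14.4% to 16.9% on each value. ATXR6 had 0.74 and 0.82 reads per ATXR5 read in Col-0, and 0.91, 0.96 and 2.08 in smr1.

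CMT3 and KYP, the partners of CHG methylation, were both higher in every smr1 library than in both Col-0 libraries. CMT3 (AT1G69770, chromosome 1, 26248118 to 26253687, minus strand, 21 exons) was at 11.4 and 10.1 CPM in Col-0 and at 17.6, 17.3 and 25.6 CPM in smr1, from 269 to 696 reads. The Col-0 mean was 10.8 ± 0.943 CPM (SD, n = 2) and the smr1 mean 20.2 ± 4.71 CPM (SD, n = 3). Its log2 fold change was 0.91 (SE 0.21, edgeR adjusted p = 0.725), and between 0.70 and 1.01 when 1 library was left out. The adjusted p of CMT3 by DESeq2 was 0.0992, the lowest of any of the 9 genes under any of the fits run. KYP (AT5G13960, chromosome 5, 4501362 to 4506250, plus strand, 15 exons) was at 1.73 and 1.31 CPM in Col-0 and at 3.60, 2.63 and 2.94 CPM in smr1. It had the largest log2 fold change of the 9 genes, 1.01 (SE 0.26, edgeR adjusted p = 0.725), from 35 to 92 reads a library. The library with most KYP was smr1 replicate 1, not replicate 4 as for CMT3. These libraries had 92 and 80 KYP reads, with counting errors of 10.4% and 11.2%. CMT3 had 6.62 and 7.69 reads per KYP read in Col-0 and 4.88, 6.59 and 8.70 in smr1, so this ratio overlapped between the groups.

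DDM1 was higher in every smr1 library, and DRM2 was not. DDM1 (AT5G66750, chromosome 5, 26648897 to 26653191, plus strand, 16 exons) was at 1.77 and 1.39 CPM in Col-0 and at 2.35, 3.03 and 3.42 CPM in smr1, from 37 to 93 reads. The groups did not overlap, and the log2 fold change was 0.90 (SE 0.27, edgeR adjusted p = 0.725). DRM2 (AT5G14620, chromosome 5, 4715105 to 4718704, minus strand, 10 exons) was at 6.20 and 5.06 CPM in Col-0 and at 6.22, 7.29 and 5.96 CPM in smr1. Col-0 replicate 2 lay within the smr1 range, and the log2 fold change was 0.21 (SE 0.19, edgeR adjusted p = 0.840). DRM2 had 135 to 197 reads a library, more than KYP, DDM1 and ATXR6 in each library.

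Levels were compared between genes per coding length, with the deposited TPM summed over the models of a locus. In Col-0 the order of mean TPM was CMT3 at 2.89 ± 0.200, VIM1 at 2.89 ± 0.817, DRM2 at 2.08 ± 0.259, VIM3 at 1.96 ± 0.480, MET1 at 1.90 ± 0.534, ATXR5 at 1.21 ± 0.129, ATXR6 at 1.02 ± 0.00542, KYP at 0.563 ± 0.0977 and DDM1 at 0.469 ± 0.0710 TPM (SD, n = 2). CMT3 and VIM1 overlapped, as did DRM2, VIM3 and MET1, and KYP and DDM1. In smr1 the order was CMT3 at 5.67 ± 1.24, VIM1 at 5.55 ± 1.21, VIM3 at 3.95 ± 0.553, MET1 at 3.03 ± 0.336, DRM2 at 2.51 ± 0.288, ATXR6 at 1.82 ± 0.874, ATXR5 at 1.27 ± 0.00722, KYP at 1.19 ± 0.205 and DDM1 at 0.913 ± 0.156 TPM (SD, n = 3). DRM2 stood at place 3 in Col-0 and at place 5 in smr1, where its range overlapped those of MET1 and ATXR6. The pairs of neighbours in smr1 with ranges apart were VIM1 above VIM3, and ATXR6 above ATXR5 by 1.29 against 1.28 TPM.

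**Figure D3:**
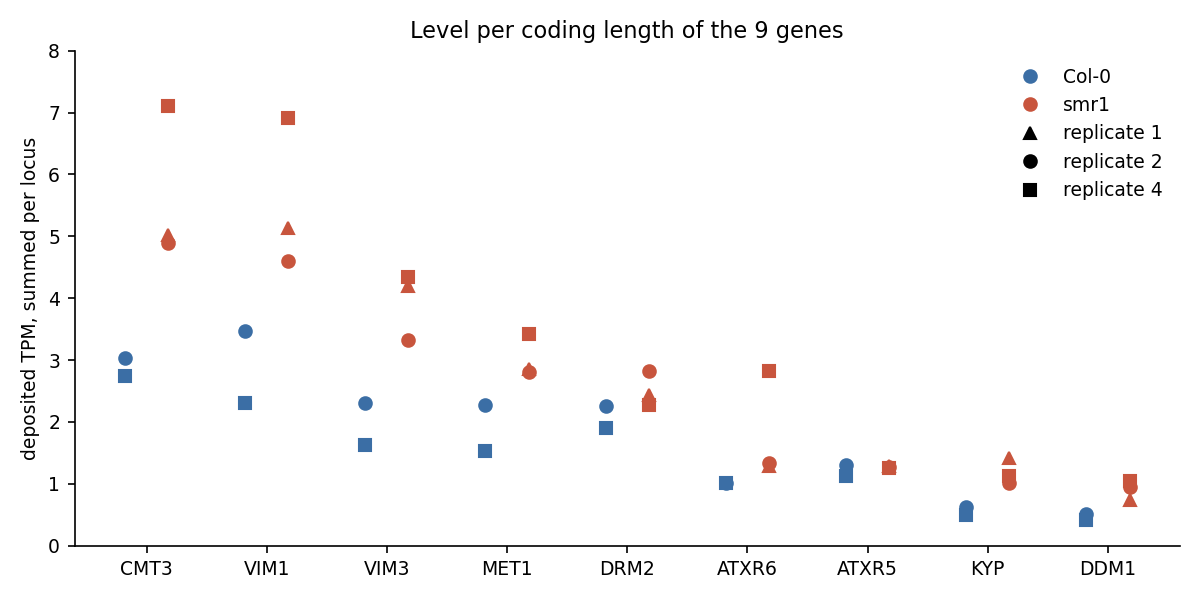
Deposited TPM summed per locus (vertical axis, from 0) of the 9 genes, ordered by their mean in smr1, with 1 point per library. CMT3 and VIM1 are highest in both genotypes, and DRM2, at 1.90 to 2.83 TPM, is at place 3 in Col-0 and at place 5 in smr1.

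The reads of each gene were also set against the reads of DRM2 in the same library, which removes the library size. CMT3 had 1.84 and 1.99 reads per DRM2 read in Col-0 and 2.82, 2.38 and 4.30 in smr1. KYP had 0.28 and 0.26 in Col-0 and 0.58, 0.36 and 0.49 in smr1. Of 8 such ratios, those of VIM1, VIM3, CMT3, KYP and DDM1 were higher in every smr1 library than in both Col-0 libraries. The share of all loci with a ratio to DRM2 that separates in this way was not computed, so this count has no background. DRM2 is itself among the genes described here, and its own groups overlapped in CPM. The ratio of ATXR5 was lower in all 3 smr1 libraries, at 0.311 and 0.333 in Col-0 and 0.296, 0.254 and 0.309 in smr1. The gap between the groups, 0.309 against 0.311, was small. The ratio of MET1 overlapped, at 2.62 and 2.09 in Col-0 and 3.04, 2.58 and 3.90 in smr1, and so did that of ATXR6. A two-sided exact permutation test of 2 libraries against 3 cannot go below p = 0.2. The 5 higher ratios and the lower one of ATXR5 had this p, which only restates that their groups did not overlap. All 6 had 0.267 after Benjamini-Hochberg adjustment over the 8. With this number of libraries no ratio could pass the adjusted threshold, so no conclusion is drawn from the test.

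The 9 genes were split into 5 replication-coupled genes (MET1, VIM1, VIM3, ATXR5 and ATXR6, which act with the fork or on newly copied DNA) and 4 others. The smr1 group lay wholly above Col-0 in 4 of the 5 replication-coupled genes and in 3 of the 4 others. Over all loci tested 13.7% had this pattern. The median log2 fold change was 0.78 for the former and 0.90 for the latter. Each side held 1 gene near no difference, ATXR5 and DRM2. As a mean of log2 CPM relative to all 5 libraries, the replication-coupled genes stood at -0.18 and -0.58 in Col-0 replicates 2 and 4, and at 0.14, 0.06 and 0.55 in smr1 replicates 1, 2 and 4. The other genes stood at -0.29 and -0.59, and at 0.22, 0.26 and 0.41. In both sets Col-0 replicate 4 was lowest and smr1 replicate 4 highest. CMT3, KYP and DDM1 can also be counted with replication, which leaves DRM2 alone on the other side, and the difference of the sets was not tested, since their genes were chosen with results of these data known.

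**Figure D4:**
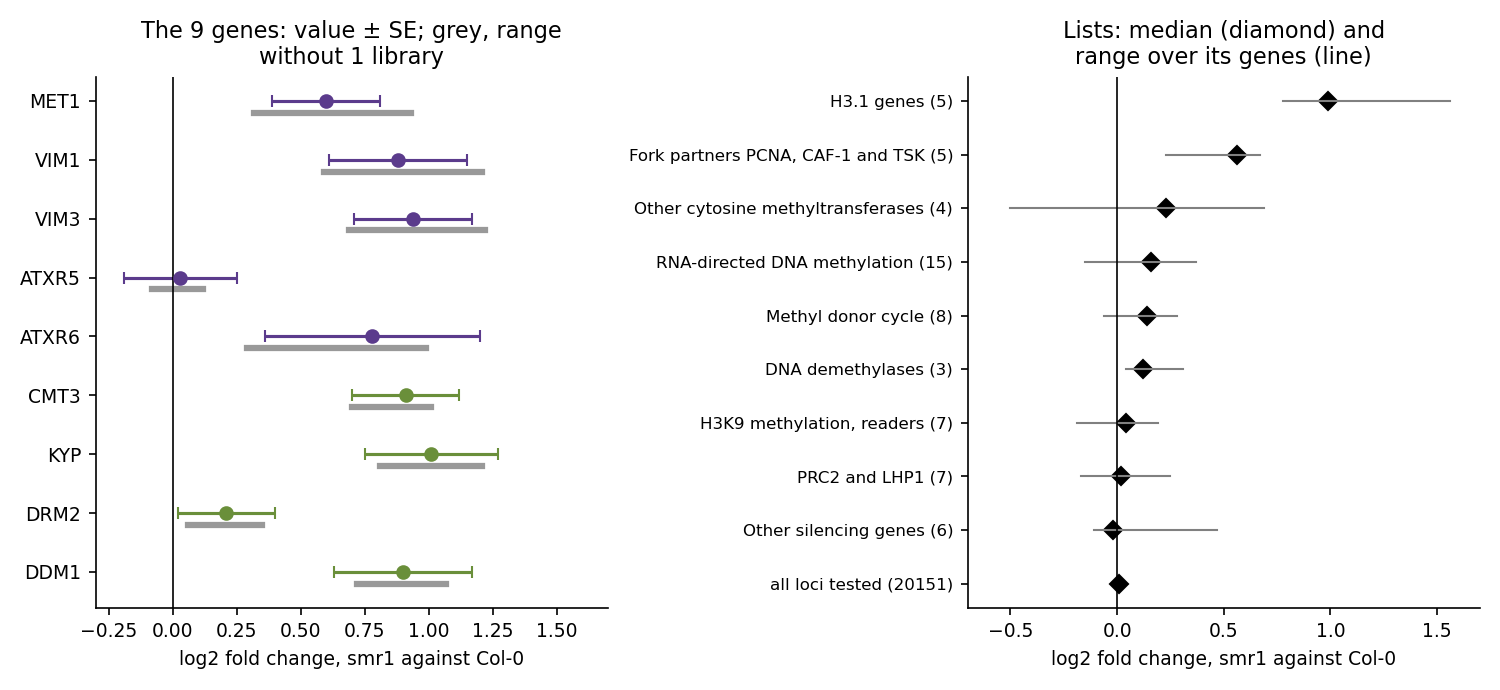
Left, log2 fold change of smr1 against Col-0 (horizontal axis) of the 9 genes, with SE bars and, in grey, the range when 1 library is left out; replication-coupled genes are purple and the others green. Right, the median and range over the tested genes of related lists on the same scale, with the number of genes in brackets: the median is 0.99 for H3.1 genes, 0.56 for the fork partners and 0.23 or less for the other lists shown.

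The medians of most other lists of DNA methylation and silencing genes lay near 0, and edgeR called 0 genes in each list. Of the 15 genes of RNA-directed DNA methylation, the pathway in which small RNAs guide DRM2, 12 were positive and 3 negative, and the median log2 fold change was 0.16. None of them was at an unadjusted p under 0.05. Those with the smallest p were SPT5L, an AGO4-binding elongation factor, at 0.25 (SE 0.13), and IDN2, an RNA-binding protein of the pathway, at 0.27 (SE 0.16). Both were among the 3 of the 15 genes (20.0%) with smr1 wholly above Col-0, against 13.7% of all loci. The summed level of the 15 was 66.3 to 68.4 CPM in Col-0 and 72.0 to 77.1 CPM in smr1. Of the 7 genes of H3K9 methylation and its readers, which leave out KYP, 4 were positive and the median was 0.04. SUVH1 was at 0.19 and IBM1, a demethylase of the same mark, at -0.19. In IBM1 smr1 lay wholly below Col-0, as in 10.1% of all loci. The 3 DNA demethylases tested had a median of 0.12, with ROS1 at 0.12 and DML2 at 0.31. The 6 other silencing genes had a median of -0.02, with the methyl-binding proteins MBD5 at 0.47 and MBD7 at -0.11. The 7 genes of Polycomb repressive complex 2 and LHP1, which set and read the trimethylated form of the ATXR5 and ATXR6 mark, had a median of 0.02, with MSI1 at 0.25 and LHP1 at -0.17.

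The nearest relatives of the methyltransferases were mixed. CMT2, a CHH methyltransferase, was at 21.3 and 17.1 CPM in Col-0 and at 23.5, 24.3 and 28.3 CPM in smr1 (log2 fold change 0.40, SE 0.15, edgeR adjusted p = 0.725). DRM1, the paralogue of DRM2, was at 0.863 and 1.39 CPM in Col-0 and at 1.56, 1.92 and 1.99 CPM in smr1 (0.69, SE 0.30). In both, smr1 lay wholly above Col-0. They were 2 of the 4 relatives tested, whose median was 0.23, where 13.7% of all loci had this pattern. Of the other VIM genes 3 were tested, with a median of -0.45 that turned to 0.87 without Col-0 replicate 2, the library highest in VIM2. ORTHL had 0.56 (SE 0.28) with overlapping groups. The 8 genes of the methyl donor cycle, which make and recycle S-adenosylmethionine, had a median of 0.14, with MAT4 at 0.28 and SAM1 at 0.14. A list drawn up as loci silenced by DNA methylation had a median of 0.08 over 5 tested, with MEA at 0.13 and PHE1 at 0.14. In none of the 5 did the groups separate. MEA and PHE1 were not silent in Col-0, at 19.3 and 17.2 CPM and at 5.55 and 11.1 CPM. Whether DNA methylation silences the listed loci in these nuclei was not tested.

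Genes of the replication fork and of newly copied chromatin lay in the same direction as the 7 genes. All 5 genes of the fork partner list were positive, with a median of 0.56. In 2 of the 5, PCNA1 and PCNA2, smr1 lay wholly above Col-0, against 13.7% of all loci. PCNA1 was at 5.63 and 4.57 CPM in Col-0 and at 7.39, 7.03 and 9.85 CPM in smr1 (log2 fold change 0.67, SE 0.22, edgeR adjusted p = 0.725), and PCNA2 had 0.56 (SE 0.20). The 5 H3.1 genes, the substrate of ATXR5 and ATXR6, had a median of 0.99. In 5 of 5 smr1 lay wholly above Col-0, against 13.7% of all loci. Their summed level was 74.1 to 83.3 CPM in Col-0 and 128 to 192 CPM in smr1. The 3 genes of H3.3, the variant laid down outside replication, had a median of 0.19. All 3 were positive, and in 1 of them smr1 lay wholly above Col-0. With 3 genes this count cannot be told from the 13.7% of all loci. Their summed level was also higher in every smr1 library, at 470.8 to 475 CPM in Col-0 and 523 to 541 CPM in smr1. The H3.1 and H3.3 genes are near-identical within each set, so values of single loci are uncertain, and both lists were taken from RefSeq synonyms after the data were seen.

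Markers of dividing cells differed in the same direction as these genes, and their part in the differences was not tested. All 8 mitosis markers were positive, with a median of 1.02. In 7 of the 8 smr1 lay wholly above Col-0, against 13.7% of all loci. The summed level of the 8 was 12.3 to 12.9 CPM in Col-0 and 21.4 to 27.3 CPM in smr1. Of the 4 markers of root meristem and stem cell niche 3 were positive, and their summed level was 15.9 to 17.7 CPM in Col-0 and 18 to 23.0 CPM in smr1. The 2 of them with the smallest p, PLT1 and PLT2, lay wholly above Col-0 in smr1, at 0.84 (SE 0.31) and 1.40 (SE 0.50). PLT2 was near the floor in Col-0, at 0.411 and 0.150 CPM. The lowest log2 fold change of the 4 was -0.47. WOX5, also in this list, had 111 and 17 reads in Col-0 and 25, 107 and 17 reads in smr1. Library by library the mean log2 level of the mitosis markers was lowest in Col-0 replicate 4, at -0.81, and highest in smr1 replicate 4, at 0.66, as for the 9 genes at -0.58 and 0.48. The meristem markers were also lowest in Col-0 replicate 4, at -0.76, but their mean log2 level was highest in smr1 replicate 2, at 0.65, where the 9 genes stood at 0.15, and it was -0.06 in smr1 replicate 4. H3.1 genes were highest in smr1 replicate 4, at 0.79, as the 9 genes were. Of the other cell types, the 4 xylem markers were all negative, with a summed level of 1426 to 1535 CPM in Col-0 and 1143 to 1366 CPM in smr1. In 3 of these 4 smr1 lay wholly below Col-0, against 10.1% of all loci. The 4 root hair markers were also negative, with summed levels that overlapped, and in 2 of them smr1 lay wholly below Col-0. Both non-hair markers were higher in every smr1 library. The 3 root cap markers were positive, with a median of 0.38, and in 1 of them smr1 lay wholly above Col-0. With 3 genes this count cannot be told from the share over all loci. Of the 3 endodermis markers 1 was positive, and of the 3 phloem markers 1 was positive. No marker of these lists was at 0 in every library, and their part was not tested either.

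**Figure D5:**
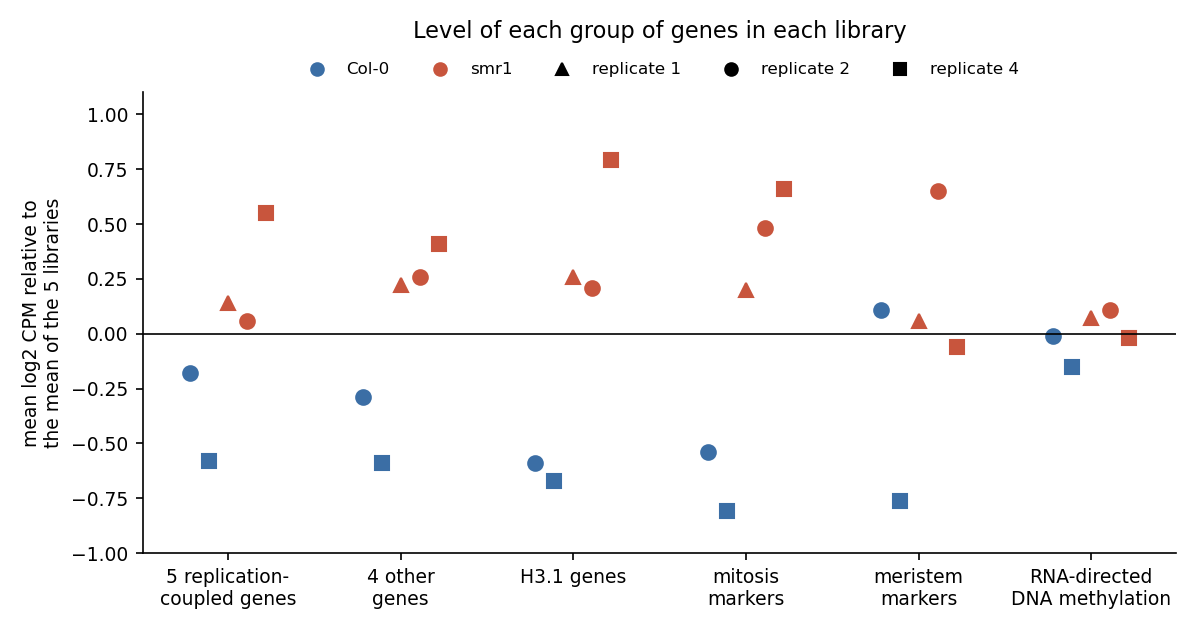
Mean log2 CPM of 6 sets of genes in each library, relative to the mean of the 5 libraries (vertical axis). The 5 replication-coupled and the 4 other genes, the H3.1 genes and the mitosis markers have every smr1 point above both Col-0 points, while the meristem markers and the genes of RNA-directed DNA methylation overlap. For RNA-directed DNA methylation the overlap is small, with Col-0 replicate 2 at -0.01 and smr1 replicate 4 at -0.02.

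The promoters were searched for the letters of the E2F site, bound by the factors that switch on genes of S phase: TTTCCCGC, TTTCGCGC, TTTGCCGC or TTTGGCGC, on both strands. In the 250 bases before the annotated gene start 0 of the 9 genes had a match, against 1.41% of 27443 nuclear protein-coding genes. With the window carried on to 50 bases after the start, a change made after the data were seen, ATXR6 and CMT3 had 1 match each, against 1.76% of genes. The sites are printed because they set apart these 2 genes, of which 1 is replication-coupled and 1 is not. Both come from RefSeq's TAIR10.1, 5′ to 3′ on the minus strand, the strand of each gene, with the match in capitals. The ATXR6 site lies at chr5:8297110-8297139, and the letters read TTTGGCGC on the opposite strand. They begin at base 32 of the gene and end 123 bases before the coding start, counted on the genome. The CMT3 site lies at chr1:26253647-26253676, and the letters begin at base 23 of the gene and end 138 bases before the coding start.
ATXR6: ccgtaacagtgGCGCCAAAttaaaattccc
CMT3: aaacccatcacTTTGGCGCttatgtgacgc

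A match is a description of letters and not evidence of binding. MET1, VIM1, VIM3, ATXR5, KYP, DRM2 and DDM1 had no match in either window. Over all the other lists searched, 4 genes had a match in both windows, and they were of mixed kinds. They were FAS1 and FAS2, subunits of the histone chaperone CAF-1, the demethylase ROS1, and CESA8, a cellulose synthase of xylem. FAS1 and FAS2 were positive, as were all 5 fork partners, whose log2 fold changes ran from 0.23 to 0.67. ROS1 had 0.12 and CESA8 -0.28. The H3.1 and H3.3 genes were not searched, and a link between a match and the fold change was not tested.

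The loci with levels most like that of MET1 over the 5 libraries were found by a measure of distance. Likeness was the root mean square difference of log2 CPM, centred on the mean of the 5 libraries, among 12534 other loci with a mean of at least 5 CPM. The 5 nearest were NP3, a protein kinase, at 0.0300, and AT5G07090, AT4G39200, AT5G22440 and AT1G15930, annotated as ribosomal proteins, at 0.0338 to 0.0408. No list of such genes was fixed or tested. AT4G39200, annotated as an S25 protein, was at 70.2 and 47.3 CPM in Col-0 and at 80.0, 80.6 and 105 CPM in smr1. Among the 9 genes the nearest to MET1 was VIM1, at 0.158, with 261 of these loci nearer, and the farthest was ATXR6, at 0.352. ATXR5, ATXR6, KYP and DDM1 lay under the 5 CPM asked of the other loci. Counting error enters the distance, and its share in the order of the genes was not tested. The measure rests on 5 libraries and is given as a description.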

How the data were processed

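RNA of sorted root tip nuclei was sequenced in 5 libraries with a stranded mRNA kit, per the labels' protocols. Per the file headers, the authors' deposited tables hold 41671 transcript models, each with its expected count and its TPM. The submitters' processing notes list CASAVA, Salmon 0.7.2 and TAIR10 but not what each was used for. The strand setting is not given in the sources used here. Model lengths were multiples of 3 in 93.36%, so lengths are coding lengths.

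Expected counts were summed per locus and rounded. The deposited TPM values keep no depth and served to compare levels between genes. edgeR 4.0.16 (R 4.3.3) was run on all loci after its expression filter (minimum count 10, minimum total 15) with TMM scaling, a robust quasi-likelihood test of genotype, 3 residual degrees of freedom and Benjamini-Hochberg adjustment at 0.05, two-sided. SE came from the F statistic. Alternatives were DESeq2 size factors, no filter, no robust estimation, DESeq2 1.42.0, limma 3.58.1 (voom, and log2 of TPM + 1), a replicate block and each library left out. The log2 levels used a prior count of 1. No library pair held identical values.

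Positions and sequences came from RefSeq's TAIR10.1. The tables hold no coordinates, and 96.5% of model lengths equalled a coding length of their locus there. Named genes were SMR1, the 9 genes, the 5 loci most like MET1, and in each pathway list those past the threshold or, with none, the 2 with the smallest p. Outside this rule, VIM4, FAS1, FAS2, CESA8, PLT1, PLT2, WOX5 and RBCS1A were named after their values were seen. Of 125 list entries 111 were kept, since RefSeq did not hold the symbol of the other 14. The 9 genes and the lists were chosen with earlier results of these data known.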

Additional observations from a re-analysis of the deposited data

How the results depend on the processing

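None of the 9 genes passed the adjusted threshold under any of 12 other settings, where the lowest adjusted p was 0.0992 (CMT3, DESeq2). All kept their direction in all 12, except ATXR5, which was reversed to -0.08 without Col-0 replicate 4 and reached 0.12 with another library left out. Over all loci the number called, 1 by edgeR, was 3 without a filter, 39 by DESeq2, and 0 by limma voom, by limma on TPM and without any one library. The count of positive genes was 8 and 1 with CMT3, KYP and DDM1 moved to the replication-coupled side, by construction. Medians of the 10 pathway lists moved by less than their spread between replicates in 113 of 120 cases. The exceptions were the other VIM genes (-0.11 to 0.87 without 1 library, 0.28 with the replicate block), the fork partners (0.31 to 0.81 without 1 library, 0.26 on TPM) and Polycomb repressive complex 2 with LHP1 (0.08 on TPM). Of the lists chosen after the data were seen, the H3.3 genes moved by more (0.24 on TPM, 0.13 without Col-0 replicate 2, 0.16 without smr1 replicate 4). On TPM the pseudocount of 1 compresses low levels, and the cause of the other shifts was not tested. The fit with a replicate block could use replicates 2 and 4 only. It called 1 locus and 0 of the 9 genes. Deviations of libraries numbered 2 correlated at 0.329 across genes between the genotypes, but with 2 pairs and no label that says what a number stands for, the samples were not taken as paired. At 35 to 104 reads a library for KYP, DDM1, ATXR5 and ATXR6, depth limits the precision of single values to between 9.81% and 16.9%.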

Other observations

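VIM2 and WOX5, a regulator of the root stem cell niche, were high in the same libraries, a pattern noticed after the values were seen. WOX5 (AT3G11260) had 111 and 107 reads in the replicates numbered 2 of Col-0 and smr1, against 17 to 25 reads in the other libraries. VIM2 had 266.2 and 193.9 reads in the replicates numbered 2, against 43.3 to 79.2 reads in the other libraries. VIM2, which shares long coding stretches with VIM3, so differed more by replicate number than by genotype.

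Of 16 loci that RefSeq notes as Sadhu retrotransposons, a list taken after the data were seen, 12 were tested. Their median log2 fold change was 0.11, and 8 were positive. In 0 of the 12 did every smr1 library lie above or below both Col-0 libraries. Over all loci tested 13.7% lay above and 10.1% below in this way. RBCS1A, a green tissue marker, was at 3.13 and 4.0 CPM in smr1 replicates 1 and 2 and at 0.262 to 0.370 CPM in the other 3 libraries.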
